A study of Mus musculus with 81 samples.

Results

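Colony-stimulating factors drive the birth, survival and activation of myeloid cells, and 6 genes of this system were followed here: Csf1, which encodes the ligand M-CSF, and the receptor genes Csf1r, Csf2ra, Csf2rb, Csf2rb2 and Csf3r. They were picked by symbol out of 54079 genes that every gene count table of the series lists, and all 6 passed the filter on low counts in each of 5 experiments. The 81 RNA-seq libraries came from WT mouse macrophages and from macrophages with a conditional knockout (cKO) of the genes for histone H3.3, with the cells of days 3 and 5 of culture labelled as progenitors, and of these libraries 79 could be placed in 27 groups of 2 or 3 libraries from the labels. WT mice carried loxP-flanked alleles of both H3.3 genes (H3f3a fl/fl:H3f3b fl/fl), and cKO mice carried the same alleles together with LysM cre/cre. The Cre recombinase sits in both copies of Lyz2 and is expressed in macrophages and granulocytes, so cKO cells also lack Lyz2 and cells outside these lineages are not targeted. Double KO mice were cKO mice with an added germline loss of Sting (cKO:StingKO), Mavs (cKO:MavsKO) or Irf7 (cKO:Irf7KO). All mice were adult.

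Bone marrow-derived macrophages (BMDMs) were grown from bone marrow of these mice in L929 conditioned medium, which supplies M-CSF from outside the cells. A time course sampled WT and cKO cultures on days 3, 5 and 7. On day 8 the cells were left untreated or received IFNg for 12 h. In an antibody experiment, cultures received nothing, an isotype control antibody or an antibody that blocks the type I interferon receptor IFNAR1 from the start of culture. The last BMDM experiment held 3 sets of WT and cKO cultures and the double KOs, and peritoneal macrophages of WT and cKO mice were taken from the animal and processed with another library kit. The labels do not say which BMDM set belongs with which double KO. The gene lists counted were 54146 long in set 3 and cKO:Irf7KO, and 55536 in sets 1 and 2 and the other double KOs.

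M-CSF binds the receptor tyrosine kinase Csf1r, on which most macrophages depend. GM-CSF binds the specific alpha chain Csf2ra, which signals through the common beta chain Csf2rb; mice also have a second beta chain, Csf2rb2, that serves the IL-3 receptor. Csf3r is the receptor for G-CSF and is best known from neutrophils, although monocytes and macrophages carry it too.

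In the mouse genome (GRCm38, GENCODE M21), Csf1 (ENSMUSG00000014599.10) lies on chromosome 3 from 107741048 to 107760469. Csf2ra (ENSMUSG00000059326.7) spans 61223957 to 61228429 on chromosome 19, and Csf3r (ENSMUSG00000028859.14) spans 126024550 to 126044440 on chromosome 4. The beta chain genes are neighbours on chromosome 15 with 20030 bases between them, Csf2rb2 (ENSMUSG00000071714.7) from 78282507 to 78305721 on the minus strand and Csf2rb (ENSMUSG00000071713.6) from 78325752 to 78353847 on the plus strand. Of the 50-base windows in Csf2rb2 transcripts, 18.4% were also found in Csf2rb, and 12.3% of the Csf2rb windows were found in Csf2rb2. Reads that mapped to several places were counted apart from genes, so reads of these shared stretches may be missing from both paralogs.

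Promoter sequence was given in RefSeq for 4 of the 6 genes (GRCm38.p6). The 250 bases before the start are shown for Csf1, the gene that rose most often in cKO cells, and for Csf2rb2, which rose most with IFNg in cKO cells, because interferon signalling ends at short DNA motifs. Both lines run 5′ to 3′ on the minus strand and capitals mark a motif match on either strand.
Csf1, chr3:107760470-107760719: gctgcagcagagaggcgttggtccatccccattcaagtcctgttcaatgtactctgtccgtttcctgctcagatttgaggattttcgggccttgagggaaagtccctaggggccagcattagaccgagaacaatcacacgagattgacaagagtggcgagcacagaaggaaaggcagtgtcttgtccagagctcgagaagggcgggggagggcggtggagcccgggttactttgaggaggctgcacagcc
Csf2rb2, chr15:78305722-78305971: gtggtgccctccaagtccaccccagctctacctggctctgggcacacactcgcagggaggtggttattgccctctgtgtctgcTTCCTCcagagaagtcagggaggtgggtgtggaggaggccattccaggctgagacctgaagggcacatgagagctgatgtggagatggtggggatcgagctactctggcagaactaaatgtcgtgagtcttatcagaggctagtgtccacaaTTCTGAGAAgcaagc

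The letters searched were TTCNNNGAA for the gamma-activated site (GAS), GAAANNGAA for the interferon-stimulated response element, GAGGAA for the myeloid factor PU.1 and TGANTCA for AP-1. Csf2rb2 held 1 GAS match, 15 bases before the start, and 1 PU.1 match, 167 bases before it. GAS letters were present in 7.02% and PU.1 letters in 23.3% of 32851 promoters of the same length. None of these letters was in the window of Csf1. Distances are counted from the RefSeq start, which for Csf3r and Csf2ra lies inside the GENCODE span given above. Csf3r held a single PU.1 match, 86 bases before its start, and Csf2ra held 2 that lie next to each other, 14 and 8 bases before the start. Response element letters (7.13% of promoters) and AP-1 letters (6.75%) were in none of the 4 windows, which says only that these letters are not in them.

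Libraries of the time course held 14419697 to 20220329 counts on genes, those of day 8 held 3614967 to 10498769, and peritoneal libraries 7625225 to 23381318. Depth ran from 5295144 to 34380735 counts with the antibodies and from 21492762 to 45564225 among the BMDM sets and their double KOs. H3f3a was lower in each cKO group than in its WT group, at 14.5 to 15.3 against 49.1 to 59.3 CPM (counts scaled to library size) on day 3, whereas H3f3b ranged from 175 to 222 in cKO and from 221 to 249 in WT on that day. The loss of H3f3b differed between experiments: it was at 16.7 to 67.7 CPM in cKO against 295 to 468 in WT of the antibody experiment and at 71.8 to 147 in cKO:Irf7KO, whereas the other cKO and double KO groups held 148 to 360. Lyz2 was at 6.77 to 19.3 CPM in cKO on day 3 and at 8627 to 13152 in WT. The Sting transcript (Tmem173) was at 5.01 to 6.1 CPM in cKO:StingKO against 68.2 to 91.6 in the cKO sets. Mavs was at 37.1 to 37.8 CPM in cKO:MavsKO, within the 36.0 to 51.6 of the cKO sets, and Irf7 was at 98.2 to 112 CPM in cKO:Irf7KO against 248 to 470 in the cKO sets, so transcript level alone checks these labels in part. Macrophage marker genes (8 genes, such as Adgre1 and Cd68) summed to between 1820 and 8780 CPM in every library. On day 3 the 12 neutrophil markers summed to 1900 to 3470 CPM in WT and 3010 to 4530 in cKO, close to the macrophage sum of 1940 to 3510 in WT.

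Levels are given as CPM after TMM scaling, and levels of different genes were compared only per kilobase of exon. On that scale Csf1r was the most abundant of the 6 genes in 27 of 27 groups, at 179 to 528 CPM per kb. Csf1r (ENSMUSG00000024621.16) lies on chromosome 18 from 61100598 to 61132149 and shares 873 of its exon bases, or 15.12%, with Hmgxb3 on the opposite strand; the counts did not separate strands, so reads there cannot be told apart. Csf2ra ranked next in 24 groups, with 41.4 to 107 CPM per kb over all groups. Csf2rb2 and Csf2rb followed, at 7.77 to 72.4 and 13.9 to 51.2 CPM per kb. The ligand gene Csf1 was the lowest in 26 groups, at 1.13 to 19.5 CPM per kb, and its highest group mean was that of cKO cells treated with IFNg. Csf3r stood apart in peritoneal macrophages, where it reached 114 ± 8.08 CPM per kb in WT (SD, n = 3) and ranked next to Csf1r, whereas in WT BMDMs on day 8 it was at 4.71 ± 1.13 (SD, n = 3). The tissues were sequenced from different kits and were not tested against each other.

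The first comparison asked what loss of H3.3 did to these genes as macrophages formed. On day 3, Csf1 was at 11.1, 6.86 and 9.59 CPM in WT and at 79.7, 44.8 and 60.7 CPM in cKO. Every cKO library was above every WT library. The difference was 2.75 ± 0.50 on the log2 scale (SE), or 6.73-fold, with an adjusted p of 0.00251 by edgeR's quasi-likelihood test over all genes. It was the single member called, where 8.65% of the 15955 genes tested were called at an adjusted p under 0.05. Markers of other cells also separated the groups on this day: monocyte markers summed to 225 to 422 CPM in WT and 601 to 840 in cKO, B cell markers to 11.6 to 12.7 and 24.9 to 52.8, mast cell and basophil markers to 12.3 to 19.8 and 32.4 to 42.9, and eosinophil markers to 11 to 19.5 and 31.7 to 39.4. Their part in the member levels was not tested.

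On day 5, Csf1 was at 14.1, 5.3 and 3.45 CPM in WT and at 55.2, 15.1 and 20.5 in cKO, again without overlap. The difference was 2.0 ± 0.50 (log2, adjusted p = 0.0371), when 3.12% of genes were called. This call was lost without WT replicate 2 (adjusted p = 0.164), WT replicate 3 (0.160) or cKO replicate 1 (0.289), which held the highest cKO value. On day 7 the libraries overlapped, at 11.7, 18.4 and 22.7 CPM in WT and 29.5, 20.2 and 26.5 in cKO. None of the 6 members was called on day 7, when 1.82% of genes were called by edgeR; 1 member, Csf1r, had an unadjusted p under 0.05 (−0.61, and −0.05 without WT day 7 replicate 2) and DESeq2 called none.

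Whether the cKO difference itself changed with time was tested as an interaction. The Csf1 difference on day 7 was smaller than that on day 3 by an estimated −2.22 ± 0.68 on the log2 scale, with an adjusted p of 0.157 by edgeR. DESeq2 gave an adjusted p of 0.0400 for this contrast. No member was called by edgeR in it, where 0.0439% of genes were called and 3 members (Csf1, Csf2rb2 and Csf3r) had an unadjusted p under 0.05. For day 5 against day 3, 0% of genes and no member were called by edgeR or by DESeq2, and no member had an unadjusted p under 0.05.

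**Figure D1:**
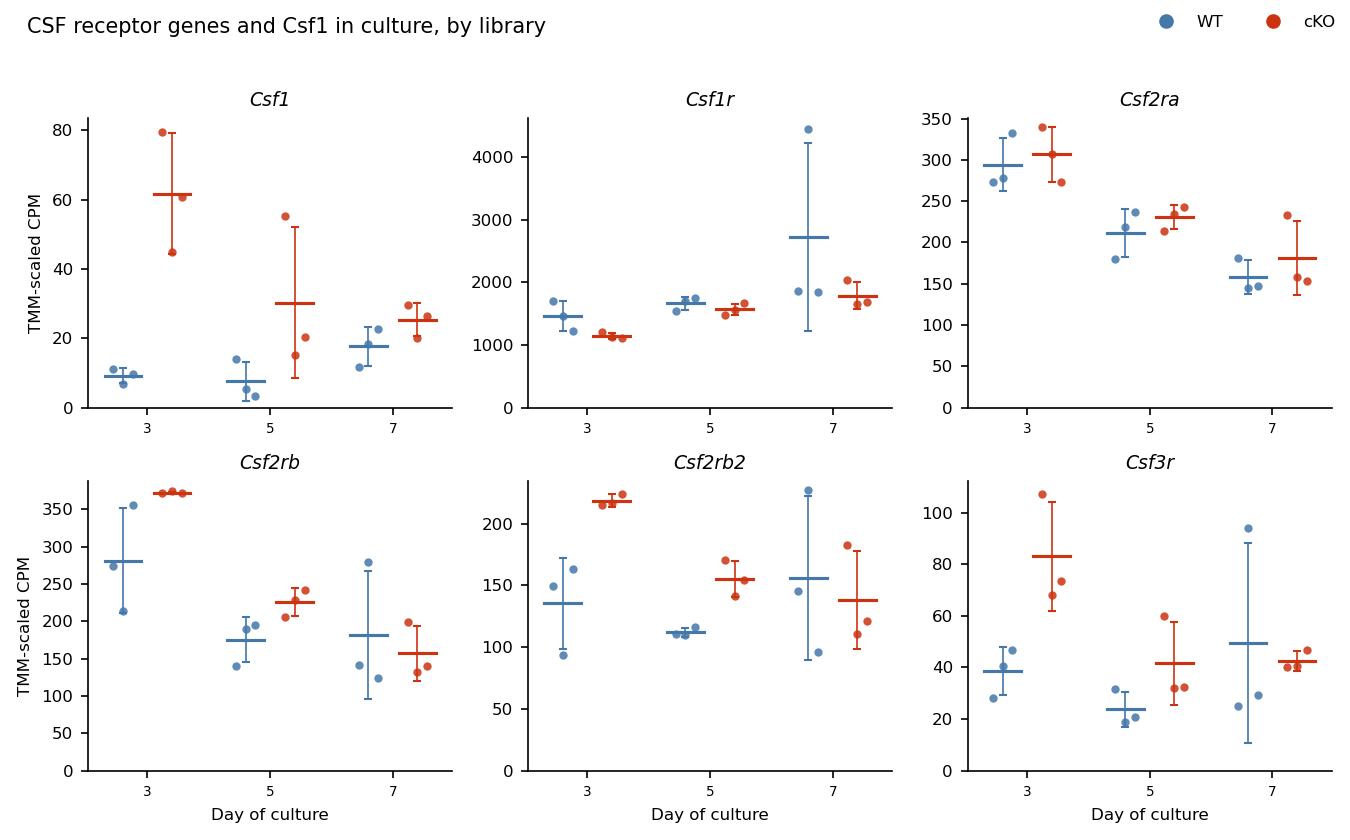
Each panel plots the TMM-scaled CPM of a gene (y axis, from 0) against day of culture (x axis); points are libraries, horizontal bars means and whiskers SD (n = 3). Csf1 in cKO lay above all WT libraries on days 3 and 5 and overlapped WT on day 7, and WT day 7 replicate 2 stood apart in Csf1r at 4458 CPM.

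The receptor genes moved less in the time course, and none was called in cKO against WT on any of the 3 days. Csf3r was at 28.3, 40.5 and 46.9 CPM in WT and 107, 68.1 and 73.5 in cKO on day 3, without overlap and with a difference of 1.10 ± 0.41 (log2, adjusted p = 0.110). Csf2rb2 was at 149, 93.8 and 163 against 215, 216 and 224 CPM, also without overlap (0.69 ± 0.26, adjusted p = 0.118). A fit to the day 3 groups alone called both, at adjusted p of 0.0159 and 0.0414. Csf2rb, the common beta chain, was at 274, 214 and 355 CPM in WT and 371, 374 and 372 in cKO (0.40 ± 0.26, adjusted p = 0.390).

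Csf1r, the receptor of M-CSF, was at 1704, 1468 and 1226 CPM in WT on day 3 and at 1204, 1129 and 1117 in cKO. All cKO libraries lay below WT, but the difference of −0.35 ± 0.26 did not pass (adjusted p = 0.482). On day 7, WT replicate 2 held 4458 CPM of Csf1r beside 1859 and 1847 in the other WT libraries, and it was also highest in Csf2rb (280), Csf2rb2 (228) and Csf3r (94.1). In that library the 5 monocyte markers summed to 368 CPM, against 93.7 and 146 in the other WT libraries of the day. Without this library the day 7 difference of Csf1r was −0.05 in place of −0.61 on the log2 scale (adjusted p = 0.970). The estimates of Csf3r (from −0.21 to 0.64), Csf2rb (from −0.21 to 0.24) and Csf2rb2 (from −0.18 to 0.19) changed sign, and none was called.

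Over culture time no member was called in any step by edgeR or by DESeq2. From day 3 to day 5, 2.9% of genes were called in WT and 4.89% in cKO, and from day 5 to day 7, 0.15% in WT and 0.0501% in cKO. At an unadjusted p under 0.05 there were 2 and 4 members in the first step and 4 and 1 in the second, in WT and cKO. Csf2ra, the GM-CSF alpha chain, had a lower mean at each later day in both genotypes, from 294 ± 32.6 to 212 ± 29.3 and 158 ± 20.7 CPM in WT (SD, n = 3), with adjusted p of 0.122 and 0.205 for the steps. Csf1 in WT passed from day 5 to day 7 only without WT day 5 replicate 1 (log2 difference 2.0, adjusted p = 0.0438), and in cKO from day 3 to day 5 only without cKO day 5 replicate 1 (−1.78, adjusted p = 0.0236).

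Csf1 was higher in cKO in all 12 comparisons of cKO with WT by its estimate, was called in 8 of them and separated the groups fully in 9. Csf3r was next, with 11 positive estimates, 5 calls and 9 separations. Csf2ra had 11 positive estimates and 3 calls, Csf2rb2 10 and 1, and Csf2rb 6 and none. Csf1r was the exception, with 9 negative estimates and a single call, a lower one. Over all genes, 0.658% (day 8 untreated) to 35.9% (set 3) were called in these comparisons, and the share that separated fully was not counted. The counts are therefore only a description of these members. These comparisons do not share control libraries, since each has its own WT group. Whether they share animals or cultures is not in the labels, so they may not be independent.

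**Figure D2:**
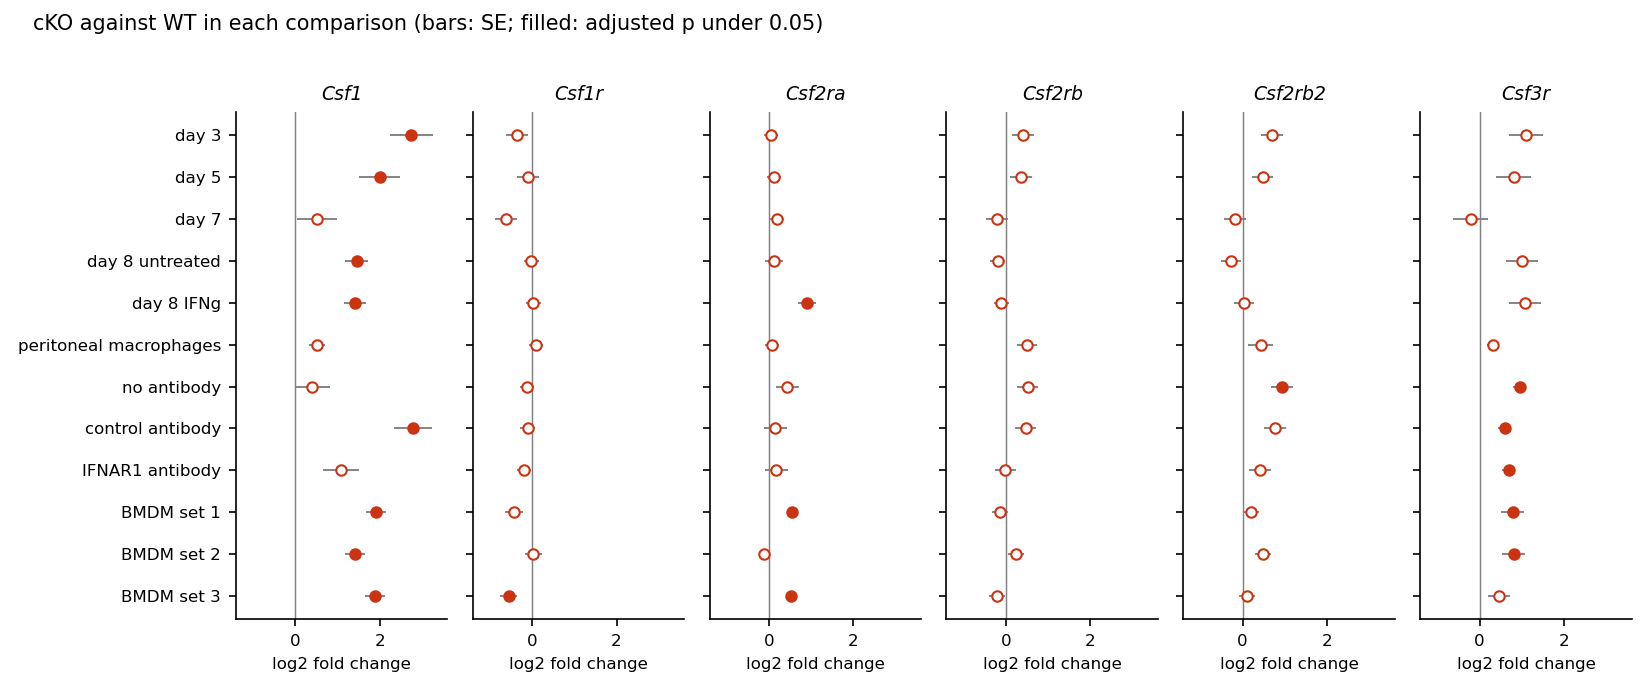
Each panel shows, for a gene, the log2 fold change of cKO against WT (x axis) in the 12 comparisons (y axis); whiskers are SE and filled points have an adjusted p under 0.05. Csf1 lies to the right of 0 in every comparison, from 0.41 to 2.78, whereas Csf1r lies between −0.61 and 0.11.

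In untreated BMDMs on day 8, Csf1 was at 11.2, 19.1 and 10.2 CPM in WT and at 31.5 and 42.5 in cKO, which did not overlap. The difference of 1.46 ± 0.27 (log2) was called (adjusted p = 0.0437) where 0.658% of 13075 genes were. It was lost without WT replicate 1 (adjusted p = 0.173) or 3 (0.227) and without cKO replicate 1 (0.169) or 2 (0.583), the last pair leaving a lone cKO library that was assumed to vary like the other groups. Csf3r was at 12.9, 21.1 and 17 CPM in WT and 32.1 and 36.2 in cKO, and its difference of 1.0 ± 0.37 was not called (adjusted p = 0.614). Csf1r was at 1134, 1450 and 1262 CPM in WT and 1214 and 1326 in cKO, with a 95% interval of the log2 difference from −0.37 to 0.34.

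IFNg, the type II interferon that activates macrophages, was then compared with no treatment. In WT, 4 of the 6 members rose, where 38.9% of genes were called in either direction. Csf2rb rose from 117, 127 and 103 CPM to 302, 385 and 343 (1.57 ± 0.16 on the log2 scale, adjusted p = 5.38e-05). Csf2rb2 rose from 105, 145 and 87.2 to 294, 399 and 312 CPM (1.58 ± 0.22, adjusted p = 0.000345). Csf1 reached 38.5, 44.4 and 32.6 CPM, each above every untreated WT library (1.51 ± 0.25, adjusted p = 0.000995).

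Csf3r in WT was at 12.9, 21.1 and 17 CPM untreated and 32.3, 50.8 and 38.2 with IFNg (1.25 ± 0.34, adjusted p = 0.0164). Its call was lost without untreated replicate 1 (adjusted p = 0.0731) or 3 (0.0552) or IFNg replicate 2 (0.0671). In contrast to the beta chains, the alpha chain Csf2ra was at 109, 126 and 121 CPM before and 134, 145 and 132 after, without overlap but not called (0.21 ± 0.19, adjusted p = 0.413). Csf1r did not pass either, at 1134, 1450 and 1262 against 1101, 1369 and 1372 CPM, with a log2 interval of −0.32 to 0.32.

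In cKO the same comparison, where 33.9% of genes were called, gave 5 members that rose. Csf2rb was at 109 and 93.7 CPM untreated and 274 and 365 with IFNg (1.66 ± 0.20, adjusted p = 0.000211), and Csf2rb2 at 109 and 76.7 against 326 and 360 (1.89 ± 0.27, adjusted p = 0.000619). Csf1 was at 31.5 and 42.5 against 93.4 and 112 CPM (1.48 ± 0.30, adjusted p = 0.0045), a call lost without untreated replicate 1 (0.0556). Csf2ra was at 127 and 132 against 328 and 186 CPM (0.99 ± 0.23, adjusted p = 0.00865), lost without untreated replicate 1 (0.0643) or 2 (0.0548), and 0.55 on the log2 scale without IFNg replicate 1.

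Csf3r in cKO was at 32.1 and 36.2 CPM untreated and at 43.4 and 125 with IFNg (1.32 ± 0.42, adjusted p = 0.0352). Without IFNg replicate 2 its log2 difference was 0.32 (adjusted p = 0.468), and it was also lost without untreated replicate 1 (0.176) or 2 (0.128). IFNg replicate 1 was the shallowest library of the series, with 3614967 counts on genes and 78.1% of its reads off genes. That library held the higher Csf2ra value and the lower Csf3r value of the pair, and its 7 stromal markers (collagens and others) summed to 394 CPM against 63.9 in replicate 2; the part of its depth in these values was not tested.

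No member was called for a difference of the IFNg response between genotypes, where 0% of genes were called by edgeR and DESeq2 called no member. Csf2ra alone had an unadjusted p under 0.05 in this interaction (0.78 ± 0.29 on the log2 scale, adjusted p = 0.518), and without cKO IFNg replicate 2 it was 1.11 with an adjusted p of 0.000625, a value that rests on the shallow library alone in its group, with the spread taken from the other groups. Under IFNg, cKO against WT gave 2 higher members, where 5.48% of genes were called. Csf1 was at 93.4 and 112 CPM in cKO and at 38.5, 44.4 and 32.6 in WT (1.42 ± 0.27, adjusted p = 0.0194), lost without WT IFNg replicate 1 (0.0600) or 3 (0.0950). Csf2ra was at 328 and 186 against 134, 145 and 132 CPM (0.90 ± 0.20, adjusted p = 0.0361), lost without any of WT IFNg replicates 1, 2 and 3 (0.0947, 0.0757 and 0.135) and 0.46 on the log2 scale without cKO IFNg replicate 1. Leaving out cKO IFNg replicate 1, the shallow library, gave a log2 difference of 1.66 for Csf3r, which rests on the lone library at 125 CPM. With the 2 day 8 libraries of conflicting labels placed by library name, edgeR called Csf3r as higher in cKO under IFNg (1.29, adjusted p = 0.0333). Placed by title, no member was called there.

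**Figure D3:**
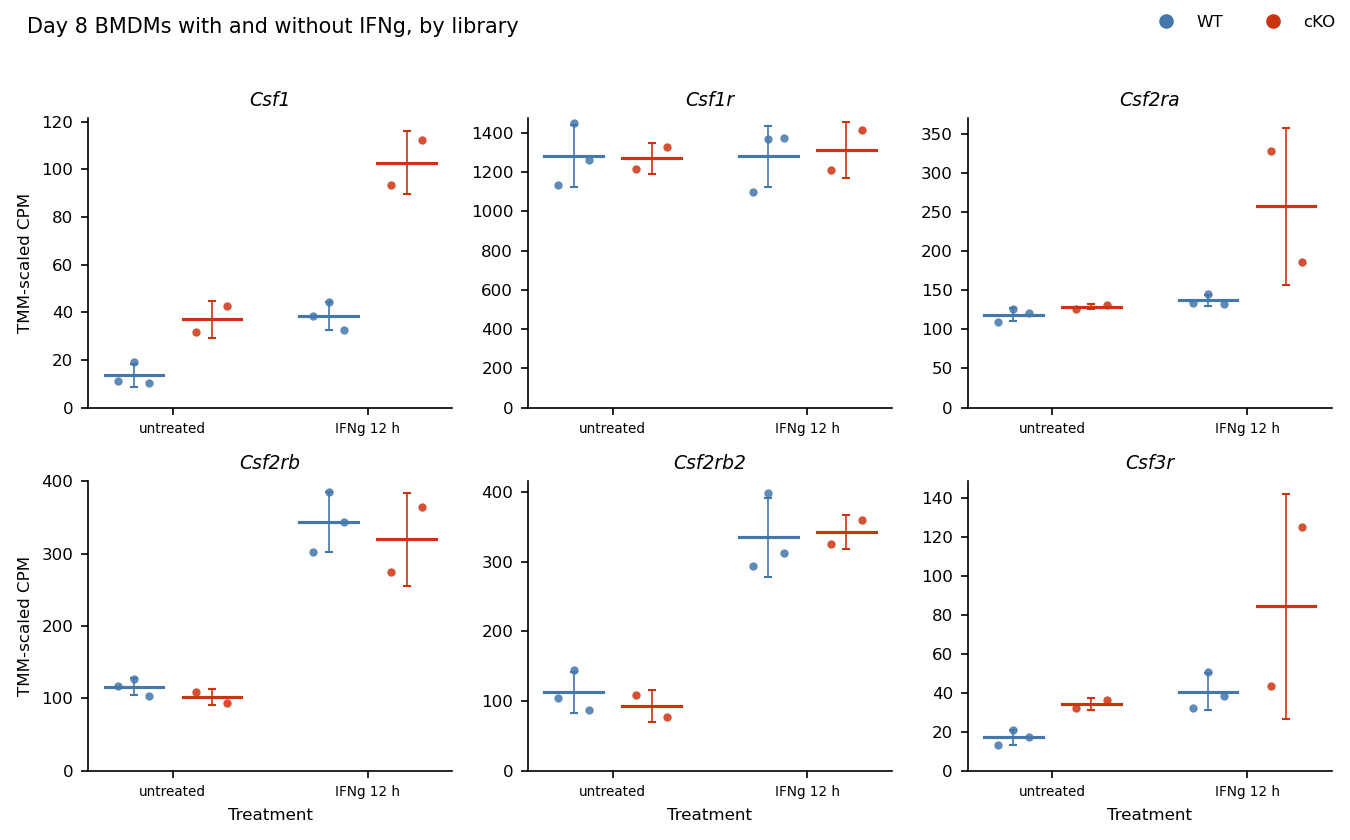
TMM-scaled CPM (y axis, from 0) of each gene in day 8 BMDMs, untreated or with IFNg for 12 h (x axis); points are libraries, bars means and whiskers SD (n = 3 in WT, n = 2 in cKO). Within each genotype the IFNg libraries lie above the untreated ones in every gene but Csf1r, although Csf2ra was not called in WT.

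Counts for the genes around these receptors are read against the 38.9% of all genes called with IFNg in WT. Among 24 signalling genes below the receptors, 8 rose and 3 fell, which is near that share, with a median log2 difference of 0.255 beside −0.00802 over all genes. Jak2, the kinase bound by the beta chains, rose by 2.38 and Stat3 by 1.95 (adjusted p of 2.9e-06 and 2.97e-05), whereas Pik3cg fell by 2.26. Of 13 negative regulators, 6 rose and 2 fell; the feedback inhibitors Socs1 (6.99), Socs3 (3.91) and Cish (3.97) rose most on the log2 scale. Of 10 transcription factors, 3 rose, among them Irf8 (3.05) and Spi1 (0.81), which encodes PU.1, and 4 fell, among them Ets2 (−2.44). GM-CSF responsive genes went both ways, with 1 of 4 higher, Cish, and 2 lower, Pparg and Irf4. The only other receptor partner that could be tested, the IL-3 alpha chain Il3ra, was not called in WT and rose in cKO (1.40, adjusted p = 0.00940).

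All 12 interferon genes rose with IFNg in each genotype, and their sum was 379 to 531 CPM in untreated WT, 1490 to 1500 in untreated cKO, 7580 to 10800 in WT with IFNg and 16500 to 20600 in cKO with IFNg. The same list separated cKO from WT on day 3, with 12 of 12 higher and sums of 64.6 to 86.3 CPM in WT and 1550 to 2200 in cKO. Its part in the Csf1 level was not tested. Stromal cells are a known source of Csf1, and their markers summed to 9.74 to 51 CPM in WT and 29.5 to 76.5 in cKO on day 3, with 0 of 4 tested called. On day 7 the stromal sum was 5.16 to 44.7 in WT and 94.2 to 146 in cKO, with 1 of 4 called, Sparc. In the time course Dcn, Lum and Pdgfra of this list reached at most 0.156, 0.377 and 1.07 CPM, whereas Col1a1 reached 76.8. The paper shows Col1a1 among the genes that rose in cKO cells. Which cells these sums come from, and their part in the Csf1 level, was not tested.

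Whether blocking the type I interferon receptor changed the member genes was asked in the antibody experiment. Without antibody, cKO against WT gave 2 higher members where 8.16% of 17191 genes were called. Csf3r was at 36.7, 38.7 and 42.2 CPM in WT and 75.4, 68.6 and 82.6 in cKO (0.95 ± 0.15, adjusted p = 0.00137), without overlap and called whichever library was left out. Csf2rb2 was at 75.1, 74.9 and 80.7 against 137, 142 and 159 CPM (0.93 ± 0.26, adjusted p = 0.0405). This call was lost whichever of the 6 libraries was left out, with adjusted p of 0.0501 to 0.144 and log2 differences of 0.86 to 0.97. Csf1 was high in both genotypes, at 18.3, 33.4 and 35 CPM in WT and 40.8, 31.4 and 43.2 in cKO, and was not called (0.41 ± 0.41, adjusted p = 0.523).

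With the control antibody, 5.12% of genes were called and 2 members were higher in cKO. Csf1 was at 14.1, 6.45 and 22.8 CPM in WT and at 72, 114 and 109 in cKO, the widest gap of the 12 comparisons (2.78 ± 0.45, or 6.89-fold, adjusted p = 0.00152), and it was called whichever library was left out. Stromal markers summed to 15.7 to 251 CPM in WT and 198 to 363 in cKO of this arm, with 0 of 5 called. Among them Dcn, Lum and Pdgfra reached at most 0.207, 0.08 and 1.26 CPM in the antibody experiment, whereas Col1a1 reached 155. The part of these markers was not tested. Csf3r was at 39.3, 44.5 and 46.5 against 67.2, 54.3 and 74.3 CPM (0.59 ± 0.15, adjusted p = 0.0291). It was lost without WT replicate 1 (adjusted p = 0.141), 2 (0.107) or 3 (0.0577) or cKO replicate 1 (0.0988) or 3 (0.153).

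With the IFNAR1 antibody, Csf3r was the single member called in cKO against WT, where 0.698% of genes were. It was at 37.1, 43.4 and 48.3 CPM in WT and 81.2, 60.2 and 65.3 in cKO, without overlap (0.68 ± 0.15, adjusted p = 0.0440). The call was lost without WT replicate 1 (0.177) or 2 (0.105) or cKO replicate 1 (0.0642), 2 (0.0521) or 3 (0.108). Csf1 was at 14, 15.1 and 24.1 CPM in WT and at 16.9, 45.9 and 50.6 in cKO, which overlapped (1.08 ± 0.42, adjusted p = 0.328). Interferon genes summed to 59.1 to 64 CPM in WT and to 220 to 306 in cKO in this arm, against 277 to 443 in cKO with the control antibody. The neutrophil marker sum was higher in cKO than in WT libraries of each arm. It was 74.1 to 96.6 against 36.6 to 66.1 CPM without antibody and 104 to 213 against 60.5 to 78.5 with the control. With the IFNAR1 antibody it was 114 to 139 against 58.5 to 83.7. These sums were mostly Mmp8, which reached 209 CPM in this experiment, whereas no other marker of the list exceeded the 2.74 CPM of S100a8. Of the 2 markers tested, 1 was called, with the control antibody. The part of this list in the Csf3r values was not tested.

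Between the antibodies, the beta chains were lower with the IFNAR1 antibody. In cKO, Csf2rb was at 239, 266 and 340 CPM with the control antibody and at 105, 132 and 163 with the IFNAR1 antibody, without overlap (−1.08 ± 0.25, adjusted p = 0.0220). Csf2rb2 was at 246, 255 and 305 against 86.6, 117 and 143 CPM (−1.22 ± 0.26, adjusted p = 0.0188). These were the 2 members called, where 4.68% of genes were. Without antibody, cKO libraries held 148 to 182 CPM of Csf2rb and 137 to 159 of Csf2rb2, below each control antibody library. The IFNAR1 antibody was not tested against no antibody. Csf2rb was lost without control replicate 2 (0.0639) or 3 (0.115) or IFNAR1 replicate 1 (0.116) or 2 (0.0602), and Csf2rb2 without control replicate 2 (0.0522) or 3 (0.0901) or IFNAR1 replicate 1 (0.0991).

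Csf1 in cKO was at 72, 114 and 109 CPM with the control antibody and at 16.9, 45.9 and 50.6 with the IFNAR1 antibody, also without overlap. Its difference of −1.38 ± 0.42 missed the threshold by edgeR (adjusted p = 0.0745) and passed by DESeq2 (0.0274). Without antibody, Csf1 in cKO was at 31.4 to 43.2 CPM, below each control antibody library and within the range of the IFNAR1 antibody. Stromal markers went from 198 to 363 CPM with the control antibody to 49.9 to 98.5 with the IFNAR1 antibody in cKO, with 0 of 5 called, and were at 40.2 to 90.9 without antibody; their part was not tested. In WT, Csf1 was not called, at 14.1, 6.45 and 22.8 against 14, 15.1 and 24.1 CPM (0.32 ± 0.43). The difference between these responses was −1.70 ± 0.60 with an unadjusted p of 0.012 and an adjusted p of 0.730, where 0% of genes were called by edgeR, DESeq2 called no member and Csf1 alone had an unadjusted p under 0.05.

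In WT, Csf2rb2 was the member called as lower with the IFNAR1 antibody, at 166, 150 and 160 CPM with the control and 49.8, 73 and 137 with IFNAR1 (−0.87 ± 0.26, adjusted p = 0.0427), when 11.2% of genes were called. IFNAR1 replicate 3 held 137 CPM, and it was also the highest of its group in Csf2ra (249) and Csf2rb (205); its stromal sum was 126 CPM against 39.6 and 6.7 in the other libraries. Without that library the Csf2rb2 difference was −1.37 (adjusted p = 0.000317), Csf2rb (−1.05, adjusted p = 0.00147) and Csf2ra (−0.99, adjusted p = 0.00844) were called too, and so was Csf2rb2 in cKO against WT with the IFNAR1 antibody (0.92, adjusted p = 0.0226). The Csf2rb2 call in WT was lost without control replicate 1 (0.120), 2 (0.115) or 3 (0.106) or IFNAR1 replicate 1 (0.151) or 2 (0.145).

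The control antibody arm itself differed from no antibody in the beta chains of WT. Csf2rb was at 131, 96.6 and 115 CPM without antibody and 194, 203 and 213 with it (0.83 ± 0.25, adjusted p = 0.0438), and Csf2rb2 at 75.1, 74.9 and 80.7 against 166, 150 and 160 (1.04 ± 0.26, adjusted p = 0.0237), where 9.73% of genes were called. Both were lost without untreated replicate 2 or 3 or any control replicate, at adjusted p of 0.101 to 0.166 for Csf2rb and 0.0714 to 0.0856 for Csf2rb2. Replicate numbers paired the libraries of this comparison, and with them as a replicate block Csf2ra (146 to 160 CPM without antibody, 244 to 261 with it) was called as well (0.73, adjusted p = 0.0463, against 0.0883 without the block). In cKO no member was called between control antibody and none by edgeR, where 2.09% of genes were; DESeq2 called 2 and 3 had an unadjusted p under 0.05 (Csf1, Csf2rb and Csf2rb2, with estimates of 1.35, 0.78 and 0.88). This comparison and that of the antibodies share the control antibody libraries.

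**Figure D4:**
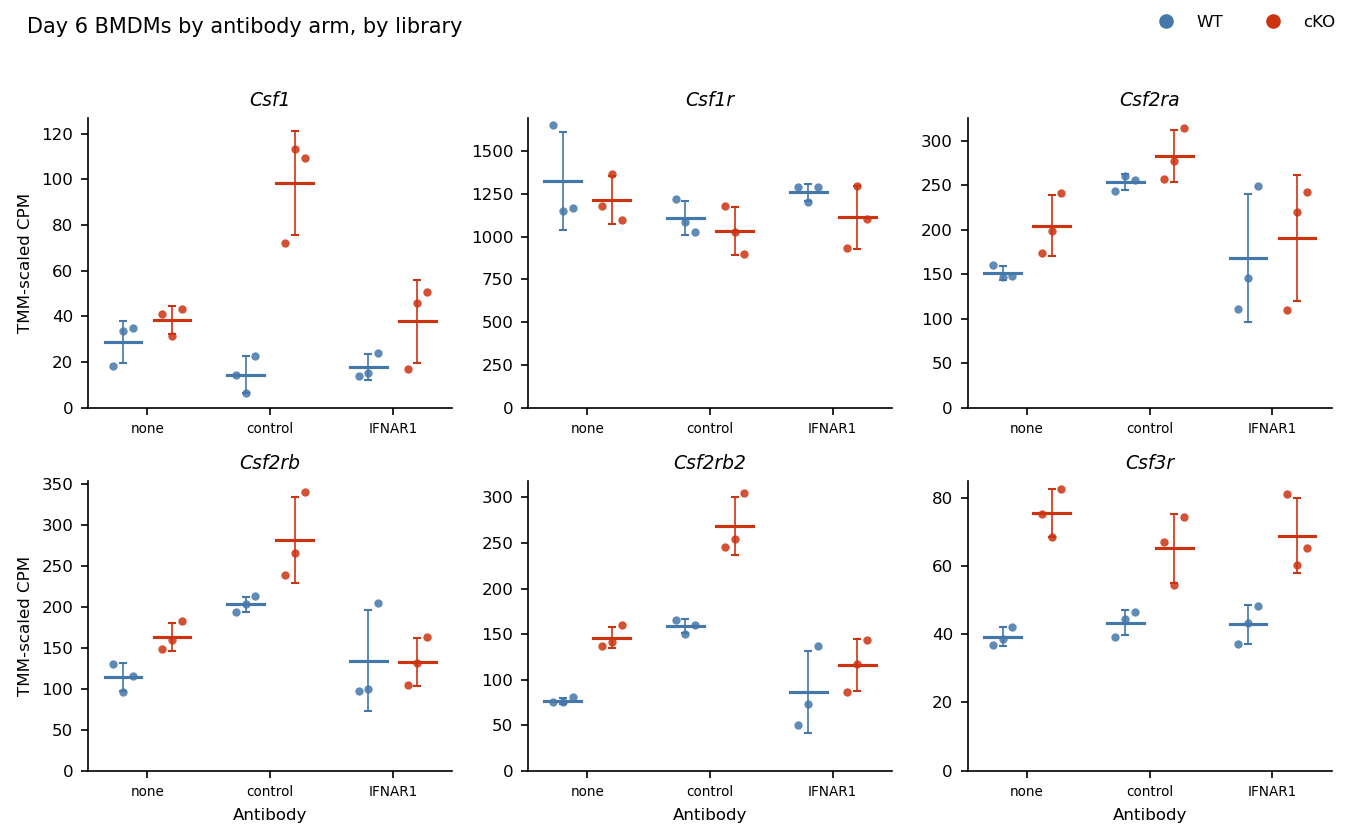
TMM-scaled CPM (y axis, from 0) of each gene in the 3 antibody arms of both genotypes (x axis); points are libraries, bars means and whiskers SD (n = 3). The means of Csf2rb and Csf2rb2 are highest with the control antibody in both genotypes, and Csf3r in cKO lies above WT in every arm.

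The 3 BMDM sets gave deeper libraries and many more calls over all genes. In set 1, where 34.6% of 18083 genes were called, 3 members were higher in cKO. Csf1 was at 10, 9.97 and 4.48 CPM in WT and 30.3, 27.8 and 35.6 in cKO (1.91 ± 0.23, adjusted p = 7.26e-07). Csf2ra was at 115, 129 and 172 against 219, 175 and 215 CPM (0.55 ± 0.13, adjusted p = 0.00142). Csf3r was at 57, 26.6 and 44.3 against 71.3, 70.6 and 76.7 CPM (0.78 ± 0.26, adjusted p = 0.0246), a call lost without WT replicate 2 (0.146) or 3 (0.0509) or cKO replicate 3 (0.0642).

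Set 2, with 21.9% of genes called, gave 2 higher members. Csf1 was at 5.91, 6.54 and 5.47 CPM in WT and 17, 17.9 and 13 in cKO (1.41 ± 0.23, adjusted p = 5.63e-05). The stromal sums overlapped in this set, at 33.8 to 96.6 CPM in WT and 40 to 80.2 in cKO. Csf3r was at 21.9, 24.5 and 22 against 37.4, 42.8 and 39.8 CPM (0.81 ± 0.27, adjusted p = 0.0312), and its call was lost whichever library was left out (adjusted p of 0.0517 to 0.0925), with log2 differences of 0.75 to 0.86. Csf2ra in this set was at 223, 215 and 225 CPM in WT and 197, 211 and 210 in cKO, below WT in each library (−0.10 ± 0.12, adjusted p = 0.630).

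In set 3, with 35.9% of genes called, Csf1 was at 8.31, 7.13 and 4.56 CPM in WT and 24.8, 22.5 and 28.1 in cKO (1.90 ± 0.23, adjusted p = 8.58e-07), and Csf2ra at 125, 113 and 135 against 194, 171 and 174 (0.53 ± 0.13, adjusted p = 0.00188). Csf1 in each set and Csf2ra in sets 1 and 3 were called whichever library was left out. Csf1r was called as lower, at 3334, 1456 and 1775 CPM in WT and 1485, 1506 and 1502 in cKO (−0.55 ± 0.21, adjusted p = 0.0406), although the groups overlapped. Without WT replicate 1, the library at 3334 CPM, the difference was −0.11 (adjusted p = 0.657), and the call was also lost without cKO replicate 1 (0.0874), 2 (0.0839) or 3 (0.0901) and by DESeq2 (0.0522).

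WT replicate 1 of set 3 was also the highest WT library of the set in Csf2rb (282 CPM), Csf2rb2 (257) and Csf3r (70.4), and WT replicate 1 of set 1 showed the same order, with Csf1r at 3068, Csf2rb at 257, Csf2rb2 at 242 and Csf3r at 57. Monocyte markers summed to 528 CPM in the first and 423 in the second, against 232 to 284 and 167 to 259 in the other WT libraries of these sets. Without set 3 replicate 1, Csf3r (1.08, adjusted p = 0.000306) and Csf2rb2 (0.52, adjusted p = 0.0139) were called as higher in cKO of set 3. Without WT replicate 2 of set 1, Csf1r was called as lower in that set (−0.64, adjusted p = 0.0163).

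Markers of other cells moved with genotype in these sets. Neutrophil markers, where Csf3r is high, summed to 111 to 170 CPM in WT and 291 to 361 in cKO of set 1, with 7 of 11 higher, and to 140 to 219 against 192 to 214 in set 2, with 3 of 11 higher. Mast cell and basophil markers, which share the beta chains, summed to 1.56 to 4.11 CPM in WT and 5.82 to 8.45 in cKO of set 1. Monocyte markers summed to 92.3 to 115 in WT and 368 to 410 in cKO of set 2. The eosinophil marker sum went the other way in that set, where Csf2ra was below WT, at 60.5 to 80.8 CPM in WT and 9.65 to 12.8 in cKO. Of 3 markers 1 was lower there, and in WT of sets 1 and 3 the sum was 4.09 to 8.12 CPM. Ccr3 reached 75.2 CPM in this experiment, whereas Prg2 reached 6.72 and Epx 0.398, so the sum in WT of set 2 leans on 1 gene of these markers. Their part in the member levels was not tested, and in bulk samples fewer cells of a type and less RNA per cell cannot be told apart.

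The double KOs were compared with the mean of the 3 WT sets and with the mean of the 3 cKO sets, so these comparisons share controls with one another. Differences between the sets also enter these means and cannot be told apart from the added gene loss, so single sets are given too. Against WT, Csf1 was higher in each double KO. It was at 29, 34.9 and 34.8 CPM in cKO:StingKO (2.24 ± 0.17, adjusted p = 1.64e-10), at 41.1, 29.3 and 22.1 in cKO:MavsKO (2.15 ± 0.17, adjusted p = 3.12e-10) and at 23.3, 21.5 and 21.1 in cKO:Irf7KO (1.66 ± 0.17, adjusted p = 8.26e-08). All of these libraries lay above the highest WT library of the sets, 10 CPM. The calls held against each WT set alone and with any library left out.

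In cKO:StingKO, 4 members were higher than in WT, where 40.2% of genes were called. Csf3r stood out at 98.3, 98.2 and 103 CPM, above all WT (21 to 70.4) and all cKO set libraries (37.4 to 76.7), with 1.54 ± 0.20 against WT (adjusted p = 1.13e-06). Csf2ra was at 208, 211 and 244 CPM (0.50 ± 0.10, adjusted p = 0.000265) and Csf2rb2 at 235, 233 and 237 (0.53 ± 0.16, adjusted p = 0.00772). Against WT set 2 alone the Csf2ra difference was 0.00063 (adjusted p = 0.998), and against WT sets 1 and 3 alone Csf2rb2 was not called (0.222 and 0.0648). Csf1r was not called (−0.41 ± 0.17, adjusted p = 0.0630) but was without WT set 1 replicate 2 (adjusted p = 0.0160), set 3 replicate 2 (0.0140) or set 3 replicate 3 (0.0411).

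Against the cKO sets, Csf3r (0.86 ± 0.20, adjusted p = 0.00181) and Csf1 (0.50 ± 0.17, adjusted p = 0.0216) were higher in cKO:StingKO, where 36.4% of genes were called. Csf3r was not called against cKO set 1 alone (0.45, adjusted p = 0.217). Csf1 was lost without cKO:StingKO replicate 2 (0.0889) or 3 (0.0981), and against cKO set 1 it was 0.075 on the log2 scale (adjusted p = 0.832). Stromal markers summed to 182 to 227 CPM in cKO:StingKO against 26.8 to 80.2 in the cKO sets, with 5 of 6 higher, and interferon genes to 1690 to 2110 against 969 to 1510. Neutrophil markers were at 276 to 286 CPM against 192 to 395. The part of these in the values was not tested.

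In cKO:MavsKO, 3 members were higher than in WT, where 43.2% of genes were called. Besides Csf1 these were Csf2ra, at 222, 193 and 189 CPM (0.37 ± 0.10, adjusted p = 0.00452), and Csf2rb2, at 187, 246 and 245 (0.48 ± 0.16, adjusted p = 0.0153). Csf2ra turned to −0.13 against WT set 2 alone and was lost without cKO:MavsKO replicate 1 (0.0530), and Csf2rb2 was lost without replicate 2 (0.0843) or 3 (0.0806) and against WT set 1 (0.279) or set 3 (0.0945) alone. Without WT set 3 replicate 1, Csf2rb was called too (0.25, adjusted p = 0.0422). Csf3r was at 30.2, 43.2 and 39.2 CPM (0.13 ± 0.21 against WT, adjusted p = 0.659). Stromal markers summed to 93 to 332 CPM in cKO:MavsKO against 26.8 to 80.2 in the cKO sets, with 6 of 6 higher; their part in the Csf1 level was not tested. No member was called against the cKO sets by edgeR or DESeq2, where 9.32% of genes were called by edgeR. Csf1 and Csf3r had an unadjusted p under 0.05 with estimates of 0.41 and −0.55. By edgeR, Csf1 was higher against cKO set 2 alone (0.95, adjusted p = 0.0264) and Csf3r lower against cKO set 1 alone (−0.96, adjusted p = 0.0167).

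In cKO:Irf7KO, where 31.9% of genes differed from WT, 2 members were higher and 2 lower. Csf1r was at 1097, 1288 and 1416 CPM, below all WT set libraries (−0.77 ± 0.18, adjusted p = 0.00157), and this call held with any library left out. Csf2rb was at 126, 112 and 115 CPM (−0.54 ± 0.16, adjusted p = 0.00996); it was lost without cKO:Irf7KO replicate 2 (0.0547) and against WT set 2 alone (−0.17, adjusted p = 0.529). Csf3r was higher than in WT at 69.4, 53.9 and 55 CPM (0.79 ± 0.21, adjusted p = 0.00468), but not against WT set 1 (0.166) or set 3 (0.147) alone. Csf2ra was not called against the mean of the sets (0.17, adjusted p = 0.217); it was higher against WT set 1 (0.34, adjusted p = 0.0378) and set 3 (0.50, adjusted p = 0.00384) alone and lower against set 2 alone (−0.33, adjusted p = 0.0418).

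Against the cKO sets, Csf2rb (−0.51 ± 0.16, adjusted p = 0.0369) and Csf2rb2 (−0.52 ± 0.16, adjusted p = 0.0458) were lower in cKO:Irf7KO, where 10.6% of genes were called. Csf2rb2 was at 137, 128 and 143 CPM, below all 9 cKO set libraries (158 to 237), and Csf2rb lay below its range of 134 to 206 in the cKO sets. Both calls were marginal. They held against cKO set 1 alone. Against cKO set 3 alone neither was called by edgeR (adjusted p of 0.30 for Csf2rb and 0.39 for Csf2rb2), nor against cKO set 2 alone (0.125 and 0.114). Csf2rb was lost in 8 and Csf2rb2 in 10 of the 12 fits that left out a library, among them each of the 3 cKO:Irf7KO libraries, at adjusted p of up to 0.158 and 0.188. Monocyte markers summed to 110 to 215 CPM in cKO:Irf7KO against 304 to 492 in the cKO sets, with 4 of 5 lower, and 9 of 11 neutrophil markers were lower. The H3.3 gene H3f3b was also lower in cKO:Irf7KO, at 71.8 to 147 CPM against 187 to 220 in the cKO sets. The part of these markers and of H3f3b was not tested.

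**Figure D5:**
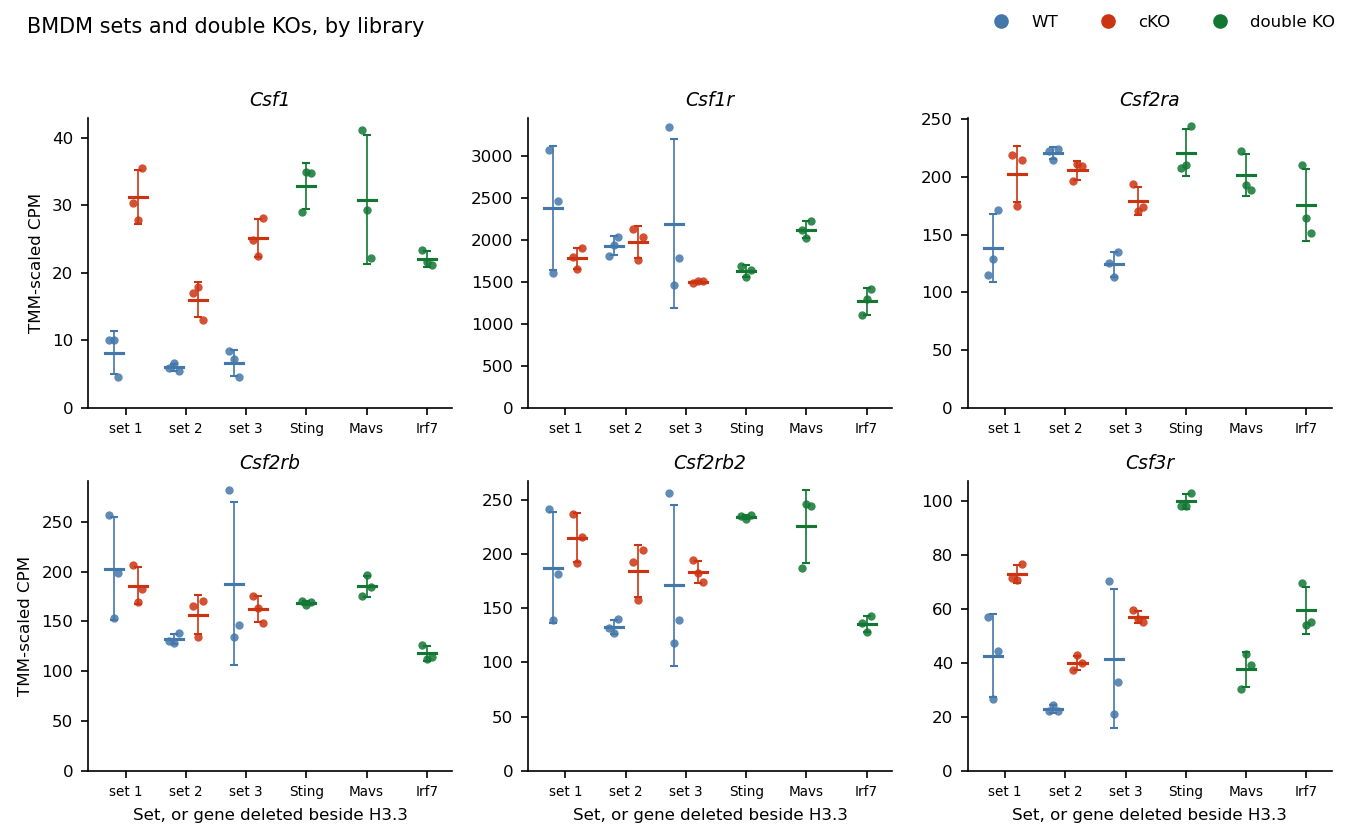
TMM-scaled CPM (y axis, from 0) of each gene in BMDM sets 1 to 3 and in the double KOs (x axis, named by the gene lost beside H3.3); points are libraries, bars means and whiskers SD (n = 3). Csf1 in every cKO and double KO library lies above every WT library, and Csf3r is highest in cKO:StingKO.

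For the genes around the receptors, on day 3, when 8.65% of all genes were called, 4 of 24 signalling genes were higher in cKO (among them Src at 1.94, Jak2 at 0.74 and Stat3 at 0.63 on the log2 scale) and 1 was lower (Mapk3, −0.43), with a median of 0.0169 beside 0.0365 over all genes. Of 14 negative regulators, 2 were higher, the feedback inhibitors Socs1 (1.59) and Socs2 (1.39). Il3ra, which pairs with the beta chains, was higher (0.86, adjusted p = 0.00600).

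In set 1, 7 signalling genes were higher and 5 lower in cKO, 6 of 14 negative regulators were higher, and of 12 transcription factors 4 were higher and 1 lower, where 34.6% of all genes were called. Spi1, which encodes PU.1 and is known to drive Csf1r, was not among the genes called there. Maf, a macrophage factor, was lower in set 1 (−0.87), set 2 (−0.61) and set 3 (−1.13), and Socs1 was higher in each (1.09, 0.69 and 1.11). GM-CSF responsive genes were mixed, as Itgax was higher in sets 1 and 3 (1.40 in each) and lower in set 2 (−2.70). In peritoneal macrophages none of these pathway genes was called.

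Peritoneal macrophages were used to ask whether the pattern was present in cells from the animal. The 5 genes listed for large peritoneal macrophages summed to 7410 to 8680 CPM. This sum leans on Adgre1, which the macrophage list also holds and which reached 6159 CPM. Icam2 reached 1426 CPM, Gata6 174 and Lyve1 102, whereas Gata6 reached at most 3.61 CPM in BMDMs, on day 8. Csf1 was at 17.2, 18.7 and 20.3 CPM in WT and 21.9, 28.5 and 30.8 in cKO, without overlap (0.52 ± 0.19, adjusted p = 0.388). Csf3r was at 385, 443 and 409 against 469, 537 and 528 CPM (0.31 ± 0.14, adjusted p = 0.544), and Csf2rb at 123, 236 and 204 against 270, 249 and 281 (0.50 ± 0.23, adjusted p = 0.542). None of the 6 was called by edgeR, where 1.06% of 12361 genes were, or by DESeq2, and Csf1 alone had an unadjusted p under 0.05. Csf1r was at 2475, 2783 and 3241 against 3223, 2841 and 3083 CPM, with a log2 interval of −0.22 to 0.43.

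Across the 27 group means, each centred on its experiment, the beta chains Csf2rb and Csf2rb2 went together (Pearson r = 0.908), as did Csf1 and Csf3r (r = 0.824), whereas Csf1r had negative r with each of the others (−0.508 to −0.151). These are descriptions over groups that share libraries of an experiment, and the beta chains also share sequence. Of 11170 genes measured throughout, those with the pattern most like Csf1 were H2-Q6 (r = 0.916), Acacb (0.909) and Resf1 (0.902). For Csf3r they were Tnfsf13b (0.902), Ctsz (0.882) and Tppp3 (0.876), and for Csf2rb2 Dnajc14 (0.924), Fut4 (0.894) and Ccnj (0.893). Csf2ra was most like Gatad2a (0.915), Tlnrd1 (0.913) and Ap1s1 (0.891), and Csf2rb like Szrd1 (0.866), Sema4a (0.846) and 1700123O20Rik (0.845). The closest to Csf1r were Il6st (0.799), Rgl3 (0.779) and Dlg4 (0.776).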

How the data were processed

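RNA-seq libraries of mouse BMDMs and peritoneal macrophages were analysed from the deposited gene tables, which hold raw read counts per gene that the authors made with Cutadapt and STAR on mm10; versions are not given in the sources used here. The unstranded count column was used. Groups came from the labels; 2 day 8 cKO libraries whose labels disagree were left out. Within each experiment, edgeR 4.0.16 in R 4.3.3 was fitted to all groups (filterByExpr with a minimum count of 10 and total of 15, TMM, quasi-likelihood test), with Benjamini-Hochberg adjustment over all genes and a threshold of 0.05. SE is the log2 fold change over the root of F, and intervals are 95%. Tables of different gene lists were joined on gene ID. Named were the 6 members, targeted genes, called genes of the pathway and marker lists, and the 3 genes most like each member; members and lists were chosen with earlier results of these data known. Alternatives were DESeq2 1.42.0, RLE, no filter, a strand column, fewer groups, a replicate block, single reference sets and leaving out each library. Replicate numbers paired the libraries (every correlation of deviations over 0.1) in 6 of 22 comparisons sharing them. The labels do not say that replicates are separate animals, so p-values measure the spread between these libraries. The test was checked on simulated counts. Some genes of the lists are not reported here.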

Additional observations from a re-analysis of the deposited data

Results flagged for a closer look

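Csf2ra was flagged because the cKO libraries of BMDM sets 1 and 3 lay above every WT library (log2 differences of 0.55 and 0.53), whereas those of set 2 lay below every WT library (−0.10). The difference between the sets was not tested. WT of set 2 held 220.9 ± 5.07 CPM (SD, n = 3), above WT of sets 1 and 3, at 138.7 ± 29.5 and 124.4 ± 10.8. Eosinophil markers summed to 60.5 to 80.8 CPM in WT of set 2, against 4.09 to 7.93 and 4.91 to 8.12 in WT of sets 1 and 3 and 9.65 to 12.8 in cKO of set 2. The sum in WT of set 2 leans on Ccr3, which reached 75.2 CPM in this experiment, whereas Prg2 reached 6.72 and Epx 0.398. The part of these markers was not tested.

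The 2 day 8 cKO libraries that entered no comparison were flagged where a member exceeded the highest untreated WT library. In the library titled as without IFNg, Csf1 was at 89.4 CPM, Csf2ra at 187, Csf2rb at 391, Csf2rb2 at 374 and Csf3r at 128. In the library titled as with IFNg, Csf1 was at 20.3 CPM, Csf2ra at 144 and Csf3r at 37.6. Their titles and library names disagree on IFNg, and the highest untreated WT values were 19.4, 128, 129, 147 and 21.4 CPM in the order of the first list.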

How the results depend on the processing

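Across all alternatives, 360 of 464 counts of called members stayed within 1.5 times the main count, 20 grew and 84 shrank; 562 of 710 values of called members kept direction and call, 147 lost the call and 1 reversed, Csf2ra in cKO:MavsKO against WT set 2 alone (−0.13). The cause of these changes was not tested. A fit to only the groups compared called 3 members on day 3, 0 on day 5, 3 in cKO from day 3 to day 5, 1 in the day 7 minus day 3 effect, 2 on day 8 untreated, 0 on day 8 with IFNg, 3 for IFNg in cKO, 4 with control antibody, 0 with IFNAR1 antibody, 0 between the antibodies in WT and 1 in cKO, 4 for control antibody against none in cKO, 4 in set 2 and 2 for cKO:MavsKO against cKO. With no filter on low counts there were 2 on day 8 untreated, 1 with control antibody, 0 with IFNAR1 antibody, 0 between the antibodies in WT and 1 for control antibody against none in WT. The strand column gave 1 with control antibody, 0 with IFNAR1 antibody, 1 in set 2 and 0 for cKO:Irf7KO against cKO. DESeq2 called 1 in the day 7 minus day 3 effect and 2 for control antibody against none in cKO. Placing the 2 conflicting day 8 libraries by title gave 0 in each of 4 day 8 comparisons (cKO against WT untreated or with IFNg, IFNg in WT and in cKO), and by library name 0 for untreated cKO against WT. By library name, Csf3r was also called in cKO against WT with IFNg (1.29, adjusted p = 0.0333). Against the cKO of single sets, cKO:StingKO had 0 (set 1) and 1 (set 3), cKO:MavsKO 1 (set 1) and 1 (set 2), and cKO:Irf7KO 1 (set 2) and 0 (set 3).

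A replicate block, in comparisons whose numbers did not pair the libraries, gave 1 member on day 8 with IFNg, 2 between the antibodies in WT and 3 for control antibody against none in cKO, and it also called Csf1 between the antibodies in cKO (−1.44, adjusted p = 0.0244). In the 6 comparisons with paired numbers it changed the call of Csf2ra between control antibody and none in WT and no other member's.

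Leaving out each library gave 0 to 1 called members on day 5, from day 5 to 7 in WT, from day 3 to 5 in cKO, on day 8 untreated and for the IFNg effect, 0 to 3 on day 8 with IFNg, 2 to 5 for IFNg in cKO, 1 without antibody, 1 to 2 with control antibody, 0 to 2 with IFNAR1 antibody, 0 to 3 and 0 to 2 between the antibodies in WT and cKO, 0 to 2 for control antibody against none in WT, 1 in set 2, 1 to 2 for cKO:StingKO and 0 to 2 for cKO:Irf7KO against cKO. Groups of 2 or 3 libraries, and 3614967 counts in the shallowest library, limit the precision.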

Other observations

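The interferon response gene Gbp2 was at 6466 CPM and Irf1 at 1281 in the unplaced day 8 library titled as without IFNg, and at 22.8 and 52.1 in the library titled as with IFNg. Untreated WT libraries reached at most 14.3 CPM of Gbp2 and 43.9 of Irf1, and WT libraries with IFNg up to 10017 and 1378. On these genes each unplaced library was nearer to the treatment in its library name than to that in its title. H3f3a was at 5.80 CPM in the library titled as with IFNg.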
